A study of Mus musculus with 2 samples.

Results

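The genes described here are those named for subunits of oxidative phosphorylation (OXPHOS) complexes I to V, in the nuclear and the mitochondrial genome. The members were all gene rows of the matrix whose symbols name such a subunit: the mitochondrial mt-Nd, mt-Co, mt-Cytb and mt-Atp genes and the nuclear Nduf (a, b, c, s and v), Sdh, Uqcr, Cox4 to Cox8 and Atp5 genes, without Ndufa4l2. They were chosen by symbol alone and numbered 97 of 32285 gene rows, of which 13 were mitochondrial and 84 nuclear. Ndufa4 was counted with complex IV, of which its protein is a subunit. By its symbol Ndufb1-ps was counted with complex I, although the annotation used for positions (GENCODE M21) lists it as a long non-coding RNA. All 13 mitochondrial members and 80 nuclear members had a mean level of at least 5 CPM (unique molecular identifiers, UMIs, per 1000000 gene UMIs) over the 3 cell classes and entered the counts below. The other 4 were Cox6a2, Cox8b, Cox8c and Cox7b2, which are given with the paralogous forms.

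Oxidative phosphorylation is the final stage of respiration, in which mitochondria make ATP. Complexes I (NADH dehydrogenase), II (succinate dehydrogenase), III (cytochrome bc1) and IV (cytochrome c oxidase) pass electrons to oxygen and, except for complex II, pump protons, and complex V (ATP synthase) uses the proton gradient. Membrane subunits of complex I, cytochrome b of complex III, the catalytic core of complex IV and part of the proton channel of complex V are encoded on the circular mitochondrial genome. That genome is transcribed inside the organelle as long precursors that are cut into mRNAs. All other subunits are encoded in the nucleus, so each complex except II needs transcripts from both genomes.

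The data were 1 single-cell 3′ RNA library (10x Chromium v3.1). It was made from colonies that cells of the dorsal aorta of 2 male C57BL/6J mice aged 12 weeks had formed over 14 days in methylcellulose (MethoCult), a semi-solid medium. Macrophage colonies (CFU-M) were taken apart, DAPI-stained and sorted for viable cells. Suspensions were tagged with MULTI-seq oligonucleotides and pooled, and the matrix names 3 tags, Cafum, Matrigel and Macrophages, whose meaning the labels do not give. There was no genotype or drug contrast, and the 2 mice cannot be told apart, so all comparisons were between cell classes of 1 library and no test could be made.

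Of 34813 barcodes 30758 were kept and clustered without the members. Clusters were named from marker genes. Mast cell-like clusters, with Cma1 and Cpa3 (mast cell proteases), held 22261 barcodes, a macrophage-like cluster, with C1qa and Csf1r, held 2764, and fibroblast-like clusters, with Col1a1 and Pdgfra, held 5464. The label of the library is CFU-M progenitors, and most barcodes carried mast cell markers. These 3 kinds of barcodes included 3421 with more than 10% of another class's median marker level, and these were left out as mixed. Of the mixed barcodes 122 were from the mast cell-like clusters, 1108 from the macrophage-like cluster and 2191 from the fibroblast-like clusters. This left 22139 mast cell-like cells with 302943439 gene UMIs, 1656 macrophage-like cells with 13769244 and 3273 fibroblast-like cells with 100665493, at medians of 11475, 7401.5 and 29697 UMIs per cell. These are called the mast, macrophage and fibroblast classes from here on. Summed mast cell markers stood at 60755 CPM in the mast class, 2675 in the macrophage class and 1432 in the fibroblast class after that step. Where a single tag was assigned, the classes mostly coincided with the tags. Cafum was carried by 19421 of the 22139 cells of the mast class, Macrophages by 1526 of 1656 of the macrophage class and Matrigel by 2241 of 3273 of the fibroblast class. The other cells had no single tag or, in a few cases, another tag. Apart from those few, a class and its suspension cannot be told apart. Tag backgrounds were medians of these classes, so the assignment was not independent of them. Intervals below are exact 95% intervals that cover counting error only, not differences between animals or cultures.

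The promoter sequences of the nuclear members are shown first, as a description. Motif content was not compared between members that differed between the classes and members that did not. NRF1, GABP (an ETS factor) and YY1 are known activators of nuclear OXPHOS genes. Promoters from RefSeq (GRCm38.p6, 250 bases before to 50 after the start site) were matched for 69 of the 84 nuclear members. The NRF1 motif, GCGCA and GCGC with any 1 base between them, was searched on both strands like the others and was in 16 of the 69 promoters (23.2%) and in 4.78% of 27025 promoters of all genes. The YY1 motif AAGATGGCG was in 6 (8.70%) against 1.49%, and the ETS motif CCGGAAGT in 5 (7.25%) against 4.0%. At least 1 of the 3 motifs was in 25 of the 69 (36.2%) against 9.61%, with a median GC content of 57.3% against 52.7%. Given here are the promoters of Sdha and Ndufb4, each with 3 NRF1 matches, and of Ndufs6, with 1 NRF1 and 1 YY1 match, with matches in capitals. Sdha (flavoprotein of complex II) and Ndufb4 (accessory subunit of complex I) are shown because they carried equal numbers of matches and differed in direction between the macrophage class and the mast class, and Ndufs6 (accessory subunit of complex I) because it held both motifs. The windows are chr13:74350191-74350490, chr16:37654319-37654618 and chr13:73328433-73328732, all on the minus strand.
Sdha: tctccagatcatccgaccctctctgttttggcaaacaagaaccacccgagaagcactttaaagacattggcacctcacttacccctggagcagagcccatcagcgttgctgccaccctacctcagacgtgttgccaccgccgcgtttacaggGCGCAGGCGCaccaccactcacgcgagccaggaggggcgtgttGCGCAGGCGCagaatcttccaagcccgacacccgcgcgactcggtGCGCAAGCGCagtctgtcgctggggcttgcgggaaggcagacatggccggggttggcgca
Ndufb4: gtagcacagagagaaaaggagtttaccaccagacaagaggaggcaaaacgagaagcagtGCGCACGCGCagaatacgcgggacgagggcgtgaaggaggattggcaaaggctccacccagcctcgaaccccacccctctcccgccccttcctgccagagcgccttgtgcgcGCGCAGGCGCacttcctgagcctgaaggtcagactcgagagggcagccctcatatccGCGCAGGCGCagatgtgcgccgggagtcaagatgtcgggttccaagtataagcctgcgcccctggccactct
Ndufs6: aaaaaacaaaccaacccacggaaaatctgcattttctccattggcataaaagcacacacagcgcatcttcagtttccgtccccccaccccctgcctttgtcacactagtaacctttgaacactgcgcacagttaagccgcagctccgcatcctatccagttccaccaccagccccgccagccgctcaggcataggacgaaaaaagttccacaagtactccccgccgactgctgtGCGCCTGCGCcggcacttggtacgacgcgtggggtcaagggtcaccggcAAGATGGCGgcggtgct
Sdha was at 66.7 CPM in the macrophage class, 1.22-fold its level in the mast class, whereas Ndufb4 was at 99.1 CPM, 0.380-fold. Ndufs6 was at 75.3 CPM, 0.541-fold. A match is a description of the letters in the window and not a measured binding site.

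The balance of the 2 genomes differed between the classes. Mitochondrial members took 4.74% of gene UMIs in the macrophage class, 2.18% in the mast class and 0.941% in the fibroblast class. Nuclear members ran in another order, with 2.71% in the mast class, 1.75% in the fibroblast class and 1.27% in the macrophage class. Nuclear UMIs per mitochondrial UMI were therefore 1.24 in the mast class, 0.268 in the macrophage class and 1.86 in the fibroblast class. Counting intervals were 0.267 to 0.270 in the macrophage class and 1.86 to 1.87 in the fibroblast class, and the narrower interval of the mast class touched neither. The fibroblast class thus had the lowest mitochondrial share but not the lowest nuclear share, and the macrophage class had the highest mitochondrial and the lowest nuclear share. The value for the macrophage class depended on choices of processing. It was 0.417 with mixed barcodes kept and 0.425 with cells over 5% mitochondrial UMIs left out, a limit that acts on the measure itself, and it stayed the lowest of the 3 classes in both cases. The ratio also differed with the tag inside a class. In the mast class it was 1.27 in cells with the Cafum tag, 0.772 in 25 cells with the Matrigel tag and 0.595 in 32 cells with the Macrophages tag, whose mitochondrial shares were 2.16%, 2.82% and 3.83%. Macrophage markers stood at 145 CPM in those 32 cells against 44.9 with Cafum. Fibroblast markers stood at 364 CPM in those 25 cells against 192 with Cafum. The part of such RNA in the ratios was not tested. In the fibroblast class the ratio was 1.88 with the Matrigel tag, 1.39 in 19 cells with the Cafum tag and 1.61 in 18 cells with the Macrophages tag.

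Per cell the same order held. The median cell of the macrophage class had 344.5 mitochondrial and 92 nuclear member UMIs, the median cell of the mast class 237 and 281, and the median cell of the fibroblast class 217 and 480. The median mitochondrial share per cell was 4.69% (quartiles 3.09% and 6.58%) in the macrophage class, 2.10% (0.922% and 3.12%) in the mast class and 0.803% (0.281% and 1.41%) in the fibroblast class. Nuclear shares were narrower, with medians of 1.21% (1.01% and 1.48%), 2.48% (2.06% and 3.05%) and 1.70% (1.45% and 2.04%). Nuclear UMIs outnumbered mitochondrial ones in 61.9% of the mast class, 4.95% of the macrophage class and 83.2% of the fibroblast class. The quartile range of the mast class overlapped those of both other classes in the mitochondrial share and of neither in the nuclear share.

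**Figure D1:**
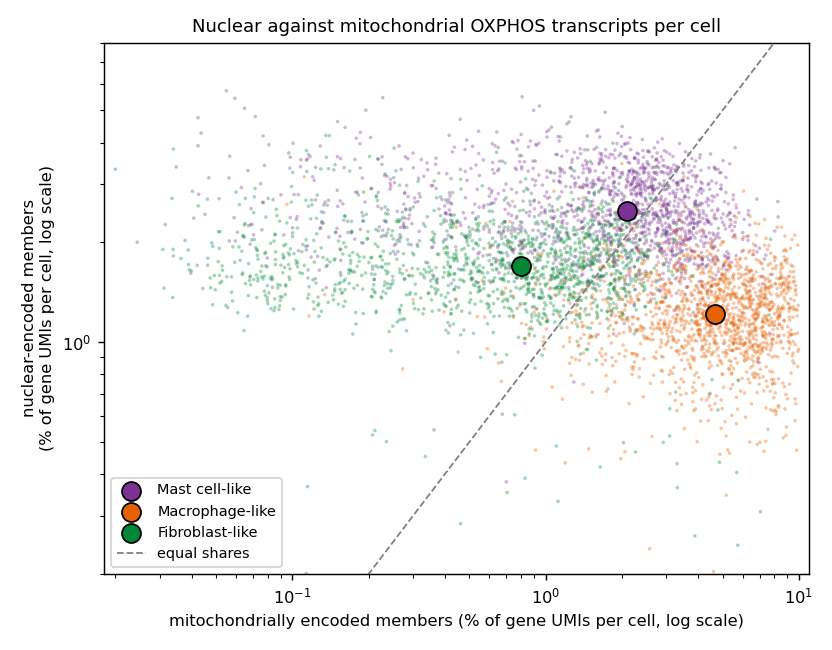
Each small point is 1 cell (a fixed number drawn per class), with mitochondrial members on the horizontal and nuclear members on the vertical axis, both as a percent of the cell's gene UMIs on log scales. Large circles are class medians (2.10% and 2.48% for the mast class, 4.69% and 1.21% for the macrophage class, 0.803% and 1.70% for the fibroblast class), and the macrophage-class median lies on the mitochondrial side of the line of equal shares.

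The nuclear share changed little over mitochondrial shares of up to 4% in the mast and fibroblast classes and was lower above that. In 16.9% of the mast class and 36.5% of the fibroblast class the mitochondrial share was under 0.5%, against 0.664% (11 cells) of the macrophage class. In the mast class the nuclear share was 2.82% in cells under 0.5%, 2.79% from 0.5% to 2%, 2.70% from 2% to 4% and 2.34% in the 2339 cells over 4%, where Malat1 stood at 26133 CPM. In the fibroblast class it was 1.76%, 1.74%, 1.80% and, in 26 cells, 1.37%. In the macrophage class it was 2.25% in the 11 cells under 0.5%, and 1.32%, 1.29% and 1.23% in the 3 bins from 0.5% upward. Across cells Pearson's r between both shares was -0.21 in the mast class, -0.08 in the macrophage class and -0.13 in the fibroblast class, given as a description of cells that share 1 library and 1 total. Malat1, a nuclear RNA, stood at 21008 CPM in the mast class, 24832 in the macrophage class and 29074 in the fibroblast class, and its part in these differences was not tested. Over 4 bins of equal cell number by depth, the ratio in the mast class went from 1.10 in the bin with the fewest UMIs to 1.31 in the bin with the most. It lay between 0.246 and 0.294 over the bins of the macrophage class and between 1.71 and 1.91 over those of the fibroblast class. The limit of 10% mitochondrial UMIs fell unequally, on 213 of 1872 barcodes of the macrophage class, 95 of 22220 of the mast class and 1 of 3218 of the fibroblast class, and without it the macrophage-class ratio was 0.229.

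All 13 mitochondrial members were at least 1.5-fold higher in the macrophage class than in the mast class, against 28.7% of the 10667 genes counted, with a median log2 ratio of 1.36 against -0.19 over all genes. With cells over 5% mitochondrial UMIs left out, 7 of the 13 were past 1.5-fold and all 13 were above 1; the calls of mt-Nd1, mt-Nd3, mt-Co1, mt-Co2, mt-Co3 and mt-Cytb were lost. Against the fibroblast class all 13 were higher in the macrophage class (background 26.2%), with a median of 2.60. In the fibroblast over the mast class 10 of 13 were lower (background 27.8%), with a median of -1.28. mt-Co3 (a core subunit of complex IV) was at 5040 CPM (95% interval 5032 to 5048) in the mast class, 9001 (8951 to 9051) in the macrophage class and 1671 (1663 to 1679) in the fibroblast class. It was 1.79-fold higher in the macrophage class and 3.02-fold lower in the fibroblast class than in the mast class. With cells over 5% mitochondrial UMIs left out its log2 ratio in the macrophage over the mast class was 0.29 against 0.84.

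The 13 did not differ by 1 common factor. From the mast to the macrophage class the fold ran from 1.56 for mt-Nd1 (complex I) to 4.65 for mt-Atp8 (complex V). Several complex I transcripts stood in the upper part of that range. mt-Nd2 was at 838 CPM in the mast class, 3218 in the macrophage class and 420 in the fibroblast class (3.84-fold higher in the macrophage class than in the mast class), and mt-Nd5 at 209, 830 and 147 (3.98-fold). The mt-Nd1 call was lost in 4 of the alternatives, with log2 ratios of 0.13, 0.43, 0.48 and 0.52 against 0.64. mt-Co1, the catalytic subunit of complex IV, was at 2857 CPM in the mast class, 5841 in the macrophage class and 2225 in the fibroblast class. It was thus not past 1.5-fold between the fibroblast class and the mast class (0.779-fold), nor were mt-Nd5 (0.706-fold) and mt-Nd6 (0.961- to 1.05-fold by its interval). As a result mt-Co1 made up 23.6% of the mitochondrial member UMIs of the fibroblast class against 13.1% in the mast class and 12.3% in the macrophage class. mt-Co3 made up 17.8%, 23.1% and 19.0% in that order. mt-Nd2 took 6.79% in the macrophage class, 3.84% in the mast class and 4.46% in the fibroblast class.

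Some of these genes share bases, so their split is uncertain. mt-Atp8 and mt-Atp6 overlap by 43 bases on the plus strand of the mitochondrial genome (GRCm38, chrM:7927-7969, protein-coding in both). The shared stretch is shown because mt-Atp8 had the highest fold of the 13, and capitals mark the start codon of mt-Atp6 and the stop codon of mt-Atp8.
mt-Atp8 and mt-Atp6: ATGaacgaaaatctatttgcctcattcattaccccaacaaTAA
mt-Atp6 and mt-Co3 share 1 annotated base, mt-Nd4l and mt-Nd4 also overlap, and mt-Nd5 and mt-Nd6 overlap on opposite strands. The use of strand in counting is not stated in the sources used here. Counts of mt-Atp8, mt-Nd4l and mt-Nd6 are therefore less certain than those of mt-Co1, mt-Nd1 or mt-Cytb.

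**Figure D2:**
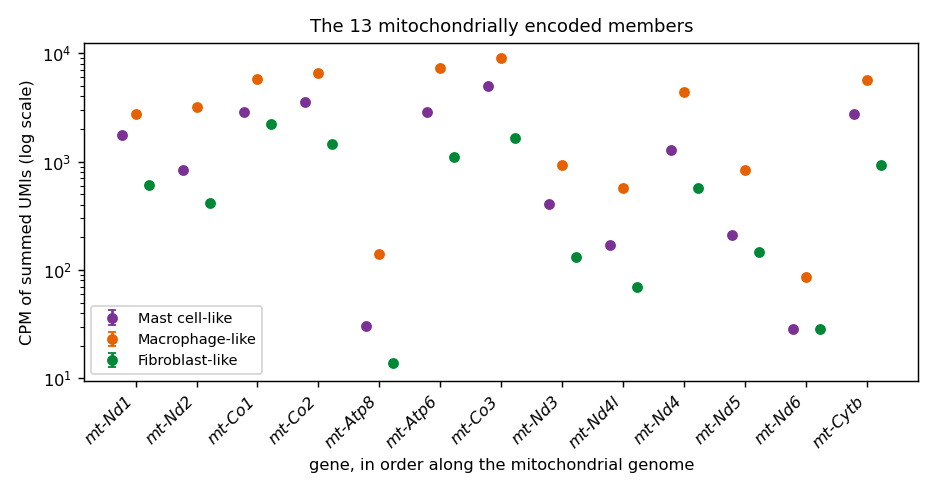
Points are CPM of summed UMIs per class on a log scale, for the 13 genes in their order along the mitochondrial genome, and bars (mostly hidden by the points) are exact 95% counting intervals. The macrophage class is highest for all 13, and the gap between the fibroblast class and the mast class is narrower at mt-Co1 (2225 and 2857 CPM) and closes at mt-Nd6.

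Nuclear members went the other way in the macrophage class. Of the 80 counted, 67 were at least 1.5-fold lower than in the mast class (background 35.7%) and 1 was higher (background 28.7%), with a median log2 ratio of -1.03, or 0.491-fold, against -0.19 over all genes. In the fibroblast over the mast class 37 were lower (background 27.8%) and 1 higher (background 31.9%), with a median of -0.50 against 0.01. In cells of 8000 to 16000 UMIs (the depth window) 17 of the 80 were lower in the fibroblast over the mast class, a smaller share than the 31.8% of all genes, with a median of -0.26 against -0.09, and at a 2-fold limit 12 were lower against 17.9%. The depth window held 9978 cells of the mast, 614 of the macrophage and 314 of the fibroblast class. Its fibroblast-class cells lay below that class's median of 29697 UMIs. Fibroblast subclusters of 2322, 540 and 359 cells had medians of 30016, 40173.5 and 9018 UMIs. The window may thus differ from the class in cell make-up, which was not tested. Between the macrophage class and the fibroblast class 32 were lower in the macrophage class (background 36.9%), a share of 40.0% near that of all genes, and 0 were higher (background 26.2%), with a median of -0.46 against -0.21. That last comparison was unstable. It gave 46 lower in the depth window (32.9% of all genes), 40 with scaling that left out mitochondrial, ribosomal and mast marker genes (40.9%), 7 with mixed barcodes kept (26.1%) and 9 lower and 1 higher with median ratio scaling, which shifted the median of all genes by 0.24 in the macrophage over the mast class and 0.25 in the macrophage over the fibroblast class. Under that scaling 34.3% of all genes were higher and 26.9% lower in the macrophage over the mast class, and 32.0% higher and 28.3% lower in the macrophage over the fibroblast class. Relative to the median of all genes, the nuclear members stood at -0.84, -0.51 and -0.25 in the 3 comparisons. A scaling shifts all genes of a comparison alike, so these differences are the same with each scaling by construction. They were -0.86, -0.17 and -0.65 in the depth window and -0.55, -0.43 and -0.15 with mixed barcodes kept. By highest level, 70 of the 80 were highest in the mast class, 9 in the fibroblast class and 1 (Sdha) in the macrophage class. By lowest level, 70 were lowest in the macrophage class, 7 in the fibroblast class and 3 in the mast class. These orders were not counted over all genes, so they have no background. The median of all genes was itself below 0 in the macrophage class over both others (-0.19 and -0.21).

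**Figure D3:**
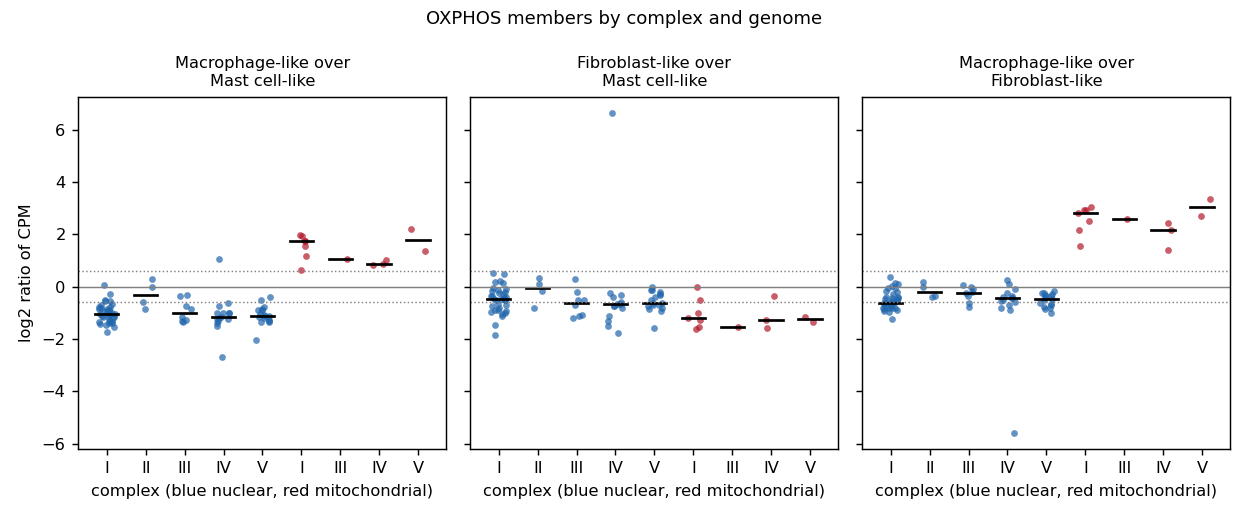
Each point is 1 member's log2 ratio of CPM between 2 classes, grouped by complex, with nuclear members in blue and mitochondrial ones in red. Black bars are medians and dotted lines mark 1.5-fold. Blue points lie mostly below 0 in all 3 panels, while red points lie above 0 in both macrophage-class panels and mostly below 0 in the fibroblast over the mast class; the outlying blue point is Cox4i2.

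Nuclear and mitochondrial subunits ran in different orders in each of the 4 complexes with subunits of both origins: nuclear sums were highest in the mast class and lowest in the macrophage class, and mitochondrial sums highest in the macrophage class and lowest in the fibroblast class. Nuclear subunits of complex I summed to 7692 CPM in the mast class, 3567 in the macrophage class and 5208 in the fibroblast class, and its mitochondrial subunits to 4716, 12769 and 1979. Nuclear UMIs per mitochondrial UMI of complex I were thus 1.63, 0.279 and 2.63. The ratio was 1.09, 0.245 and 1.90 for complex III, 0.717, 0.182 and 0.968 for complex IV and 2.75, 0.490 and 4.53 for complex V, in the same order of classes. The ratio was lowest in the macrophage class and highest in the fibroblast class for all 4. Levels differ between genes with 3′ capture as well as with expression, so these ratios are read between classes and not between complexes.

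Complex I takes electrons from NADH. Of its 36 nuclear members 31 were lower in the macrophage class than in the mast class (background 35.7%) and 13 in the fibroblast class than in the mast class (background 27.8%). Ndufa1, a small accessory subunit, was at 404 CPM in the mast class, 121 in the macrophage class and 113 in the fibroblast class. It was 3.33-fold lower in the macrophage class and 3.59-fold lower in the fibroblast class than in the mast class; between the macrophage class and the fibroblast class it differed 1.08-fold (1.02 to 1.14). Ndufv3, an accessory subunit of the NADH-oxidising module, was at 289, 100 and 237 CPM and was the lowest gene of complex I in the macrophage over the fibroblast class, 2.37-fold. With mixed barcodes kept, its log2 ratio there was -0.62 against -1.24.

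Other complex I genes departed from that order. Ndufv1, the FMN-binding subunit, was at 19.6 CPM in the mast class, 20.7 in the macrophage class and 28.3 in the fibroblast class. Ndufs4, needed for the late steps of assembly, was at 87.6, 62.2 and 123 CPM, 1.4-fold higher in the fibroblast class than in the mast class and below the 1.5-fold limit. Ndufs8, an iron-sulfur subunit, was at 69.4, 47.7 and 37.0 CPM, with 1.29-fold more in the macrophage class than in the fibroblast class.

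Complex II, which oxidises succinate and has no mitochondrially encoded subunit, differed least. Its 4 members summed to 258 CPM in the mast class, 204 in the macrophage class and 219 in the fibroblast class. Sdha, the flavoprotein, was at 54.6 CPM (53.8 to 55.5), 66.7 (62.5 to 71.2) and 58.5 (57.0 to 60.0). Sdhc, a membrane anchor, was at 43.2, 42.8 and 54.9 CPM and Sdhd, the other anchor, at 47.6, 31.8 and 42.1. Sdhb, the iron-sulfur subunit, was at 112, 62.8 and 63.8 CPM and was the 1 member of the complex past 1.5-fold, lower in both the macrophage class (1.79-fold) and the fibroblast class (1.76-fold) than in the mast class.

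Complex III passes electrons from ubiquinol to cytochrome c. Of its 8 nuclear members 6 were lower in the macrophage class (background 35.7%) and 4 in the fibroblast class (background 27.8%) than in the mast class. Uqcrh, the hinge protein that helps bind cytochrome c1, was at 998 CPM in the mast class, 419 in the macrophage class and 709 in the fibroblast class, 2.38-fold lower in the macrophage class than in the mast class. Uqcrc1 and Uqcrc2, the core proteins of the matrix side, were the 2 members under the limit in the macrophage over the mast class. Uqcrc1 was at 54.3, 44.0 and 46.9 CPM and Uqcrc2 at 55.3, 43.2 and 67.2 CPM.

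Complex IV reduces oxygen. Of its 15 counted nuclear members 14 were lower in the macrophage class than in the mast class (background 35.7%) and 10 in the fibroblast class than in the mast class (background 27.8%). Cox8a, a membrane subunit with the highest mean level of the nuclear members, was at 1268 CPM in the mast class, 546 in the macrophage class and 803 in the fibroblast class. Cox7c, another small membrane subunit, was at 945, 475 and 769 CPM. Cox5a, a matrix-side subunit, was at 523, 221 and 187 CPM, lowest in the fibroblast class. Ndufa4 was at 696, 267 and 282 CPM. Cox4i1, the common form of subunit IV, was at 840, 542 and 717 CPM. Its call in the macrophage over the mast class (log2 ratio -0.63) was lost with mixed barcodes kept (-0.41), with median ratio scaling (-0.39), with cells over 5% mitochondrial UMIs left out (-0.58) and without the dividing and Ctsg clusters (-0.58). The call of Cox8a in the fibroblast over the mast class (log2 ratio -0.66) was lost with mixed barcodes kept (-0.54), in the depth window (-0.37) and without the dividing and Ctsg clusters (-0.52).

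The paralogous forms of complex IV subunits gave the sharpest differences between classes. Cox4i2, the isoform of the regulatory subunit IV known from lung and from oxygen-sensing cells, was at 45.1 CPM (43.8 to 46.4) in the fibroblast class, 0.449 (0.377 to 0.531) in the mast class and 0.944 (0.503 to 1.61, from 13 UMIs) in the macrophage class. It was 100-fold higher in the fibroblast class than in the mast class (84.6 to 120), a log2 ratio of 6.65, or 7.45 in the depth window. It was the 1 nuclear member past 1.5-fold higher in each comparison that had one. Its level in the macrophage class was 2.09% of that in the fibroblast class, and fibroblast markers there stood at 1.79% to 3.44% of theirs (median 2.08%). In the mast class Cox4i2 was at 0.996% of the fibroblast level against a marker median of 1.39%. The higher call in the macrophage over the mast class rests on 13 UMIs, at a level within the range of fibroblast markers in the macrophage class. The source of those UMIs was not tested. In the 25% of cells with the least mast cell RNA (414 of the macrophage class) the log2 ratio of Cox4i2 was -0.070. That value rests on at most 13 UMIs in the macrophage class. The cells were picked by mast cell RNA, so that value does not bear on fibroblast RNA. Cox4i2 held 5.92% (5.75% to 6.09%) of the Cox4i1 and Cox4i2 UMIs in the fibroblast class against 0.0534% in the mast class. Cox4i2 lies at chr2:152754173-152765037 on the plus strand (GRCm38).

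Cox6b2, a form of subunit VIb best known from testis, had the lowest ratio of the nuclear members in the macrophage over the mast class. It was at 70.7 CPM (69.8 to 71.7) in the mast class, 11.1 (9.42 to 13) in the macrophage class and 20.7 (19.9 to 21.7) in the fibroblast class, 6.36-fold and 3.41-fold lower. It held 9.55% of the Cox6b1 and Cox6b2 UMIs in the mast class, 3.25% in the macrophage class and 5.10% in the fibroblast class. Its level was above the mast cell marker RNA in both classes, at 15.7% and 29.3% of the mast-class level against marker medians of 4.16% and 2.22%. With mixed barcodes kept the macrophage over fibroblast log2 ratio turned from -0.90 to 0.12. Cox7a1, the heart and muscle form of subunit VIIa, was at 21.9, 7.84 and 13.9 CPM against 591, 262 and 373 for Cox7a2. Its lower level in the fibroblast class than in the mast class (log2 ratio -0.66) was 0.13 in the depth window, -0.48 without the dividing and Ctsg clusters and -0.57 with mixed barcodes kept. Cox6a2, Cox8b, Cox8c and Cox7b2 had at most 2.28 CPM in any class. Cox6a2 (the muscle form of subunit VIa) had 29 UMIs in the mast class (0.0957 CPM), 26 in the macrophage class (1.89 CPM) and 230 in the fibroblast class (2.28 CPM). Cox8b had 13, 17 and 8 UMIs (0.0429, 1.23 and 0.0795 CPM), Cox8c 13, 0 and 0, and Cox7b2 1, 0 and 1. A count of 0 was read against a fixed floor of 3 UMIs, which is 0.218 CPM in the macrophage class and 0.0298 CPM in the fibroblast class.

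**Figure D4:**
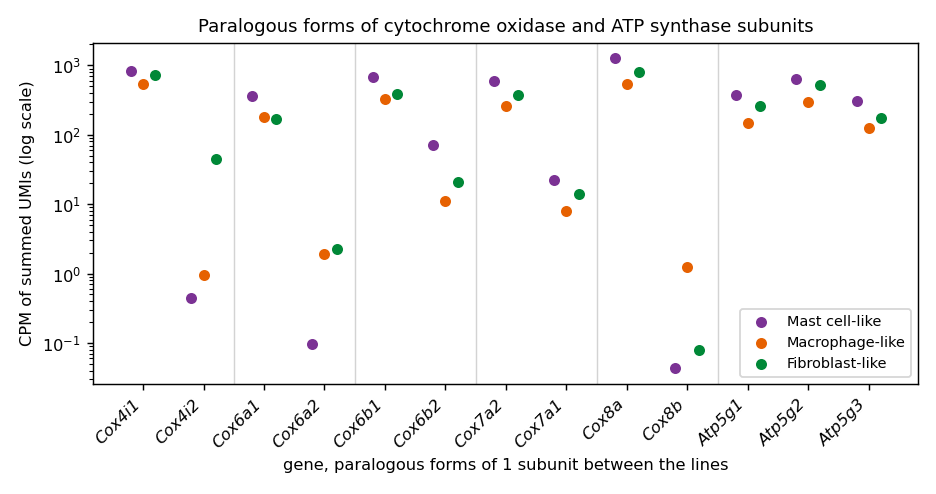
Points are CPM of summed UMIs per class on a log scale for paralogous forms of complex IV and V subunits, separated by vertical lines. Cox4i2 is the form that separates the fibroblast class (45.1 CPM) from both other classes, and Cox6b2 is highest in the mast class (70.7 CPM).

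Complex V makes ATP. Of its 17 nuclear members 15 were lower in the macrophage class (background 35.7%) and 9 in the fibroblast class (background 27.8%) than in the mast class. Atp5f1, subunit b of the peripheral stalk, was at 676 CPM in the mast class, 167 in the macrophage class and 228 in the fibroblast class, 4.05-fold and 2.97-fold lower. With mixed barcodes kept its log2 ratio in the macrophage over the mast class was -1.09 against -2.02 and that in the macrophage over the fibroblast class 0.18 against -0.45, and those of Cox6b2, Ndufa1 and Ndufv3 were -1.26, -0.93 and -0.84 against -2.67, -1.74 and -1.53. Atp5e, the epsilon subunit of the central stalk, was at 1103, 481 and 581 CPM, with a log2 ratio in the fibroblast over the mast class of -0.92, or -0.52 in the depth window. Atp5c1, the gamma subunit of the rotor, was at 286, 132 and 264 CPM, 1.99-fold lower in the macrophage class than in the fibroblast class. Atp5b, the catalytic beta subunit, differed least between the macrophage class and the mast class, at 229, 176 and 210 CPM. The 3 genes for the identical mature subunit c kept similar parts: Atp5g1 held 28.2%, 25.9% and 27.6% of their UMIs in the mast, macrophage and fibroblast class, Atp5g2 48.5%, 52.1% and 53.8%, and Atp5g3 23.3%, 22% and 18.6%.

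Within the mast class the nuclear share moved while the mitochondrial share stayed within 1.99% to 2.50% over the 6 clusters. The clusters led by mitotic genes such as Cdc20 and by histone genes had nuclear shares of 3.19% and 3.25% and ratios of 1.58 and 1.63. The cluster with Il1rap and Ly6a had 2.07%, the lowest ratio (0.826) and the highest Malat1 level (31705 CPM). Between these lay the clusters with Ctsg (2.92%), Wdr17 (2.76%) and Mrgprb1 (2.21%). In the dividing clusters, set against the other 4, 12 of 79 nuclear members were past 1.5-fold higher, a share near that of all genes (12.2%). None, or 0, were lower (background 9.42%). Above 1 were 74 of 79, against 4569 of the 9332 genes counted there. The median log2 ratio was 0.38, or 1.30-fold, against -0.01 over all genes. Ndufa5, an accessory subunit of complex I, was at the top with 205 against 106 CPM, and Cox7a2l, a factor of supercomplex assembly, at the bottom with 274 against 392. None of the 13 mitochondrial members passed 1.5-fold there in either direction (0 higher and 0 lower), with a median of -0.16. Dividing clusters also had the deepest cells, with medians of 17385 and 23764 UMIs against 8972 to 15362 in the others, and the part of depth was not tested.

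The fibroblast and macrophage classes were also uneven at finer resolution (1.0). Subclusters keep the class names of the main clustering. Named anew at the finer resolution, the macrophage class held 1532 cells against 1656 and the fibroblast class 2873 against 3273. Some of the cells below thus no longer counted in their class. Of the macrophage-class cells, 1534 formed a main subcluster with 4.93% mitochondrial and 1.23% nuclear shares (ratio 0.25). The other 122, with Napsa, Adam8 and Plac8, had 2.44% and 1.76% (ratio 0.719), a mitochondrial share near the 2.18% of the mast class and a nuclear share near the 1.75% of the fibroblast class. In the fibroblast class the largest subcluster (2322 cells) had 0.876% and 1.62% (ratio 1.84) and 540 cells with Dlk1 had 1.13% and 2.08% (ratio 1.85). A further 359 cells with Hp and Scd1 had 0.943% and 2.48%, the highest ratio (2.62), at a Malat1 level of 4283 CPM. A set of 52 cells stood apart with 2.43% mitochondrial and 0.394% nuclear shares (ratio 0.162) and 88647 CPM of Malat1. Without those 52 the fibroblast-class ratio was 1.88. Cox4i2 was at 49.2, 29.1 and 64.2 CPM in the subclusters of 2322, 540 and 359 cells, so it was not confined to one of them. Cox6b2 was at 13.6, 44.1 and 18.5 CPM in the same order.

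**Figure D5:**
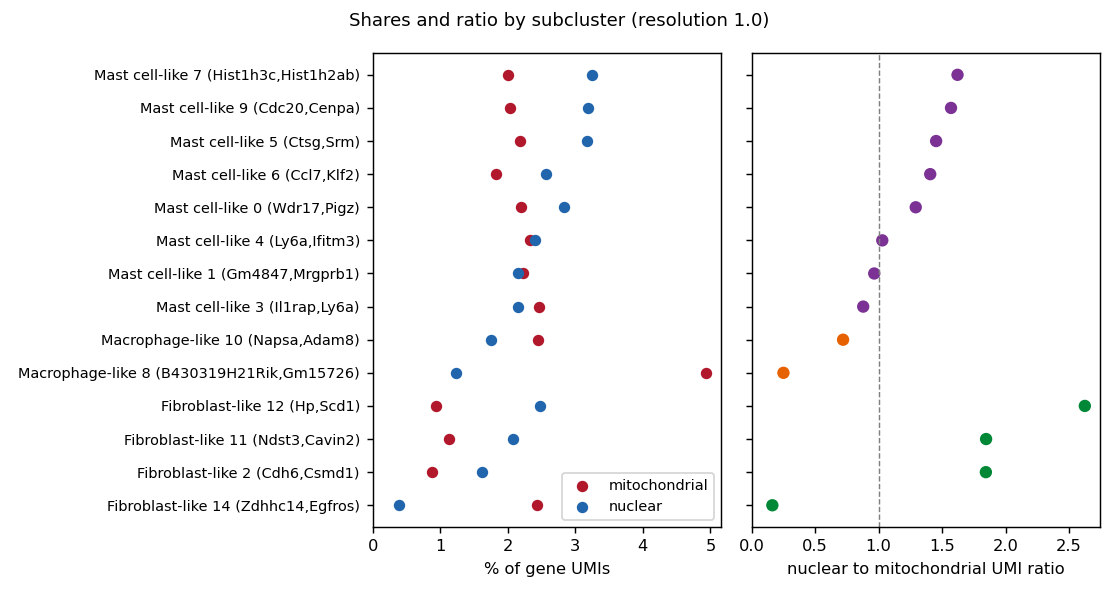
Rows are the subclusters of the 3 classes, with class names from the main clustering, each with 2 leading genes. The left panel gives mitochondrial (red) and nuclear (blue) member shares as a percent of gene UMIs, and the right panel the ratio of nuclear to mitochondrial UMIs, with a dashed line at 1. Ratios span 0.878 to 1.62 in the mast class, 0.25 and 0.719 in the macrophage class and 0.162 to 2.62 in fibroblast-class subclusters.

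Genes of the pathway outside the rule were taken from listed groups. Of 10 further subunits and carriers 6 were lower (background 35.7%) and 0 higher (background 28.7%) in the macrophage class than in the mast class, the lowest being Cycs (cytochrome c) with 202 CPM in the mast class, 80.8 in the macrophage class and 76.3 in the fibroblast class. In the fibroblast over the mast class 3 were higher (background 31.9%) and 2 lower (background 27.8%). Ndufa4l2, a paralogue of Ndufa4 known to be induced by hypoxia, was at 610 CPM in the fibroblast class and 6.19 in the mast class, 98.6-fold. At 9.01 CPM in the macrophage class it stood at 1.48% of the fibroblast level, and in the mast class at 1.01%, both below the medians of fibroblast markers there. Of the UMIs of Ndufa4 and Ndufa4l2, Ndufa4l2 held 68.4% in the fibroblast class against 0.882% in the mast class. Slc25a5 and Slc25a4 are forms of the ADP/ATP carrier of the inner membrane. Slc25a5 was at 285, 179 and 87.2 CPM and Slc25a4 at 102, 70.4 and 404 CPM in the mast, macrophage and fibroblast class.

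Assembly factors and the mitochondrial ribosome, which makes the 13 mitochondrial proteins, were lower in the macrophage class together with the nuclear subunits. Against the 35.7% lower and 28.7% higher of all genes in the macrophage over the mast class, 10 of 13 complex I assembly factors were lower and 1 higher, 15 of 27 factors for complexes II to V were lower and 0 higher, and 39 of 49 large and 19 of 28 small ribosomal subunit genes were lower with 1 higher each. Median log2 ratios of these 4 groups were -0.93, -0.85, -0.89 and -0.89. Ecsit, a complex I assembly factor, was at 15.7 CPM in the mast class and 3.78 in the macrophage class. Uqcc3, which helps to assemble complex III, was at 114 and 36.5 CPM, and Mrpl57 and Mrps26 of the ribosome at 224 and 51.9 and at 60.3 and 19.4 CPM. The 3 higher genes were Nubpl, which inserts iron-sulfur clusters into complex I, at 4.73 and 9.88 CPM, Mrpl52 at 69.3 and 114 and Mrps28 at 33.6 and 114. In the fibroblast over the mast class the same 4 groups had 3, 6, 13 and 7 lower and 1, 2, 2 and 5 higher, in each group smaller shares than the 27.8% lower and 31.9% higher of all genes. In the macrophage over the fibroblast class 10, 13, 28 and 15 were lower and 0, 0, 0 and 1 higher, against 36.9% lower and 26.2% higher of all genes.

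Of 13 counted genes for upkeep and transcription of the mitochondrial genome, 5 were lower (background 35.7%) and 2 higher (background 28.7%) in the macrophage class than in the mast class, with a median log2 ratio of -0.42 against -0.19 over all genes. The lower count is near that background and is no result about these genes as a group. Tfam, the factor that packages and transcribes mitochondrial DNA, was at 21 CPM in the mast class, 12.1 in the macrophage class and 25.6 in the fibroblast class. The 2 higher were Polg2, the accessory subunit of the mitochondrial DNA polymerase, at 8.07, 39.6 and 17.4 CPM, and Supv3l1, a helicase of mitochondrial RNA turnover, at 9.87, 22.2 and 8.22 CPM. Lowest was Trmt10c, a part of mitochondrial RNase P, at 15.8, 4.28 and 10.2 CPM.

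Of 7 counted transcriptional regulators of the pathway 2 were higher in the macrophage class than in the mast class, a share near that of all genes (28.7%), and 0 lower (background 35.7%). Nrf1, whose motif is shown above, was at 28.7, 42.8 and 38.4 CPM in the mast, macrophage and fibroblast class, 1.49-fold higher in the macrophage class than in the mast class and under the limit. Pprc1, a coactivator of the PGC-1 family, was at 8.21, 19.5 and 11.6 CPM, and its relative Ppargc1b, the other higher gene, at 3.82, 7.12 and 4.68 CPM. Yy1, at the bottom of the group, was at 91.8, 78.3 and 85.8 CPM. Ppargc1a, the coactivator best known for raising mitochondrial content, was at 0.0693, 0.145 and 4.19 CPM (21, 2 and 422 UMIs). Of 13 citric acid cycle genes 6 were lower (background 35.7%) and 1 higher (background 28.7%) in the macrophage class than in the mast class. Cs, citrate synthase, was at 68.8, 32.0 and 33.9 CPM, and Fh1, fumarase, the 1 higher gene, at 21.6, 33.4 and 23.9 CPM.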

How the data were processed

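One library was analysed. The authors deposited raw UMI counts per gene and barcode, with no normalization. Per the file headers the tool was Cell Ranger 7.0.0. The submitters' processing notes also name STAR, R 4.1.3, Seurat 4.1.1 and the build mm10. Intron counting, strand and barcode removal beyond Cell Ranger are not given in the sources used here. The library of tags alone was not analysed here. The 3 tag features, 21.9% of all UMIs, were kept out of gene totals.

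Barcodes with at least 500 genes, 1000 UMIs and at most 10% mitochondrial UMIs (33964 of 34813) passed. Scrublet in scanpy 1.11.5 called 3242 doublets (9.31%), which were removed. Its threshold lay below 37.1% of simulated doublets, so some remain. Cells were clustered (2000 variable genes, 30 components, 15 neighbours, leidenalg 0.10.2, resolution 0.5) without 399 genes: the members, listed genes, mitochondrial and ribosomal protein genes. Names came from marker lists. A marker counted at 50 CPM or more and 4 times its lowest level over clusters of at least 100 cells, and a name needed 3 markers and more than 50% of its list. A name was withheld where another list had more markers among the cluster's leading genes. It was also withheld where no marker was among them and 3 times the cluster's median UMIs was below the median of all cells. Clusters of 201 and 35 barcodes stayed unnamed by these conditions. No file gave the authors' annotation, and names rebuilt here may differ from the study's. A tag was assigned at 2 times (Cafum 1.4 times) its background where no other tag passed. The background was the median of the macrophage class for Cafum and of the mast class for the other tags. UMIs were summed per class. A gene was called at 1.5-fold, and levels have exact Poisson, shares Clopper-Pearson and ratios exact binomial intervals.

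Members and lists were chosen with earlier results of these data known. Chosen after seeing the data were the clustering tool and a condition that leading genes be detected in 25% of cells (a first clustering left the largest mast cell-like cluster unnamed), the removal of mixed barcodes, and the descriptions by mitochondrial share, dividing cluster, subcluster, paralogue and motif. Named genes were all mitochondrial members, the 5 nuclear members with the highest mean, the 3 highest and 3 lowest ratios per comparison and, per list, the top and bottom gene. Other names (paralogues, complex II, Ndufs6, Ndufb4, Ndufa4, Uqcrc1, Uqcrc2, Atp5b, Tfam, Nrf1, Supv3l1, Ppargc1a and the carriers) were chosen after their values were seen. Positions come from GENCODE M21 (GRCm38), which matched 97 of 97 members. The annotation has 1 nuclear member, Ndufa13, overlapped on its own strand and 27 on the other strand, whose counts are less certain. One result is not reported here. The call was checked on simulated data. Alternatives were other filters, resolutions, depth windows, tags, scalings, level minima and fold limits.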

Additional observations from a re-analysis of the deposited data

How the results depend on the processing

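The ratio of nuclear to mitochondrial UMIs ordered the classes the same way in every alternative run. For the mast, macrophage and fibroblast class it was 1.31, 0.425 and 1.88 with at most 5% mitochondrial UMIs, 1.23, 0.229 and 1.87 with no such limit, 1.20, 0.257 and 1.97 within 8000 to 16000 UMIs, and 1.27, 0.262 and 1.88 in cells of 1 tag. In the mast class it was 1.24 with called doublets kept and 1.10 without the dividing and Ctsg clusters. In the macrophage and fibroblast class it was 0.25 and 1.84 at resolution 1.0, 0.289 and 2.04 in the 25% of cells with the least mast cell RNA, 0.249 and 1.89 with mast cell RNA taken off, and 0.417 and 1.69 with mixed barcodes kept, an alternative added after seeing the data. Counts of nuclear members moved more. In the fibroblast over the mast class 17 were lower (31.8% of all genes) and 3 higher in the depth window, 12 lower at a 2-fold limit (17.9%), both below the share of all genes, and higher were 2 in the 25% of cells with the least mast cell RNA, 3 without the dividing and Ctsg clusters, 4 with no level minimum, 0 at a minimum of 20 CPM and 4 at the lower fold limit. In the macrophage over the fibroblast class 9 were lower (28.3% of all genes) and 1 higher with median ratio scaling, 55 lower (45.9%) and 1 higher at the lower fold limit, 2 lower at 2-fold (24.0%), 7 lower with mixed barcodes kept (26.1%), 46 lower in the depth window (32.9%) and 1 higher with no level minimum. In the macrophage over the mast class 0 were higher in the 25% of cells with the least mast cell RNA, 3 with no level minimum and 0 at 20 CPM. Of all genes 24.6% to 46.4% were higher in these settings and comparisons. Among members past 1.5-fold the sign turned for Cox7a1 in the fibroblast over the mast class in the depth window (log2 ratio 0.13), Cox4i2 in the macrophage over the mast class in the 25% of cells with the least mast cell RNA (-0.070) and Cox6b2 in the macrophage over the fibroblast class with mixed barcodes kept (0.12). Below that limit it turned with a move of over 1.5 times for Ndufa12 in the fibroblast over the mast class (-0.14 to 0.47) and Cox7b in the macrophage over the fibroblast class (-0.42 to 0.20), both in the depth window, and Atp5f1 in the latter with mixed barcodes kept (-0.45 to 0.18). The Cox4i2 value of -0.070 rests on at most 13 UMIs in the macrophage class. The cause of these moves was not tested, except that other fold limits and level minima act by construction. One library with pooled mice gives no estimate of the spread between animals or cultures. No paired analysis was possible because there was 1 library.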

Other observations

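The barcodes left out as mixed lay between the classes in both shares. The 1108 macrophage-like ones had 3.43% mitochondrial and 2.02% nuclear member UMIs (ratio 0.590) with 37507 CPM of mast cell markers, and a median of 2268 UMIs of the Cafum tag against 1236.5 in the macrophage-like cells kept. The 2191 fibroblast-like ones had 1.34% and 2.04% (ratio 1.53) with 19368 CPM of mast cell markers, and 2392 Cafum tag UMIs against 1191 in those kept. Of these, 97.1% and 96.7% were over the limit for mast cell markers. Scrublet had not called them.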
